A study of Arabidopsis thaliana with 6 samples.

Results

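The B-box zinc finger (BBX) family of Arabidopsis thaliana was examined for chromatin sites of WDR5A, a WD40-repeat subunit of the complexes that methylate lysine 4 of histone H3. All 32 genes of the family, CONSTANS (CO) and the CONSTANS-LIKE (COL) genes included, were taken by TAIR10 locus out of 27444 protein-coding genes on the 5 nuclear chromosomes. Chromatin immunoprecipitation with an HA antibody was followed by sequencing in whole seedlings of 9 days, grown in continuous white light. The 3 immunoprecipitated (IP) libraries and 3 input libraries are described as WDR5A-HA_pkl, that is, HA-tagged WDR5A in a pkl background, where PKL is the chromatin remodeller PICKLE. Neither the promoter that drives the tagged protein nor the pkl allele is named in the labels. Titles and descriptions disagree: the IP libraries are titled PKL_WT and the inputs PKL_jaw-5D, so the bait, the genotype and the IP or input identity rest on the descriptions. The design text calls the replicates biological. No wild-type background was analysed here, so the values say where summits were called in these seedlings and not what the pkl mutation changed.

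A B-box is a zinc-binding fold that mediates contacts between proteins, and the CCT domain, named after CO, COL and TOC1, contacts DNA and nuclear factor Y. In seedlings the family works in light signalling: several members bind the transcription factor HY5 and are degraded through the ubiquitin ligase COP1, some promoting and others restraining the light-grown form of development. CO itself, with a group of relatives, acts on flowering time through the florigen gene FT. By the published classification, 13 members carry 2 B-boxes and a CCT domain, 4 a single B-box and CCT, 8 carry 2 B-boxes only and 7 a single B-box only.

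The files gave one summit list per IP library, with the position of each summit and its strength, the −log10 of the peak's q-value. Replicates 1, 2 and 3 had 10864, 10408 and 10826 summits, with median strengths of 7.08, 6.48 and 6.64. The strength grows with sequencing depth, which is unknown here, as well as with enrichment. For some genes the percentile of a summit within its own list (the percentage of the list's summits at or below it) is therefore given beside the strength. No list of an input library was used, and a missing summit means only that the authors' caller reported none.

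Most B-box genes carried a summit. A summit lay within the gene or 500 bp to either side in all 3 lists at 22 of the 32 members, 68.8%, whereas 24.8% of all protein-coding genes were called by the same rule. Each of the lists on its own called 25 of the 32 members, 78.1%, whereas a list called 34.0% ± 0.621 (SD, n = 3) of all protein-coding genes. Among protein-coding genes between 642 and 2968 bp long, the range spanned by the members, 23.7% were called. The members' median length was 1828 bp and that of all protein-coding genes 2078 bp. The members with 2 B-boxes and CCT were longer, with a median of 2292 bp. Of the other members, 4 had a summit in 2 lists (COL13, COL6, BBX20 and BBX27), as did 8.7% of protein-coding genes, and BBX31 had one in 1 list, as did 10.1%. COL12, COL7, BBX23, BBX26 and BBX30 had none in any list, which was also the case for 56.4% of protein-coding genes. No test over genes was made on these counts.

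**Figure D1:**
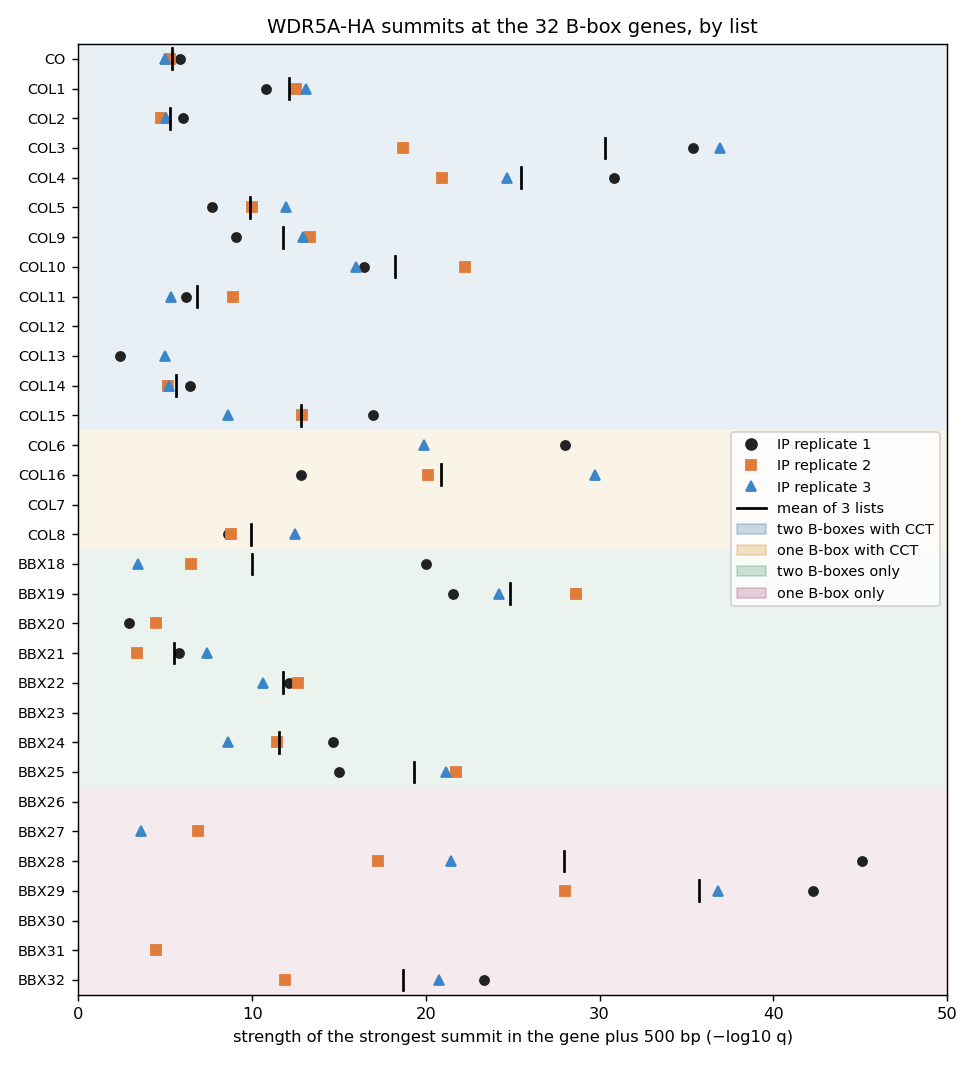
Strength of the strongest summit (−log10 q, horizontal axis) in the gene plus 500 bp for each of the 32 B-box genes (rows, shaded by structural group). Points are the 3 IP lists, a missing point means no summit, and vertical bars are means of 3 lists; BBX29, COL3, BBX28, COL4 and BBX19 stand highest.

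The 4 structural groups differed in how many of their genes were called. Of the members with 2 B-boxes and CCT, 11 of 13 were called in all 3 lists, and single lists called 89.7% ± 4.44 (SD, n = 3) of them. The members with 2 B-boxes only followed with 6 of 8, or 83.3% ± 7.22 per list. Of the members with a single B-box and CCT, 2 of 4 were called, 66.7% ± 14.4 per list, and of those with a single B-box only, 3 of 7, 57.1% ± 14.3 per list. The share with a single B-box and CCT was 75.0% in replicates 1 and 3, equal to that with 2 B-boxes only in replicate 3. Groups of 4 to 13 genes are small, and the differences between them were not tested.

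Gene length moved with the order of the groups in part. Median lengths were 2292 bp for 2 B-boxes with CCT, 1923 bp for a single B-box with CCT, 1820 bp for 2 B-boxes only and 1236 bp for a single B-box only. Its part in the counts was not tested. Strength had another order than the counts. Over the called members alone, the median of the mean strengths was 27.9 for the 3 called genes with a single B-box only. It was 15.4 for the 2 with a single B-box and CCT, 11.8 for the 11 with 2 B-boxes and CCT and 11.7 for the 6 with 2 B-boxes only. It was 11.96 over the 22 called members together and 8.90 over all 6801 called protein-coding genes. The 27.9 was the mean of BBX28, which stood at 23.9 without a replicate 1 summit 494 bp from the gene. At BBX29, in the same group, the strongest summits lay 445 to 466 bp from the gene. Its region 206 bp from the gene had a mean of 13.2. The strongest summit was in the top 10% of its list in all 3 lists at 3 members, COL4, BBX19 and BBX29, against 2.07% of protein-coding genes.

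**Figure D2:**
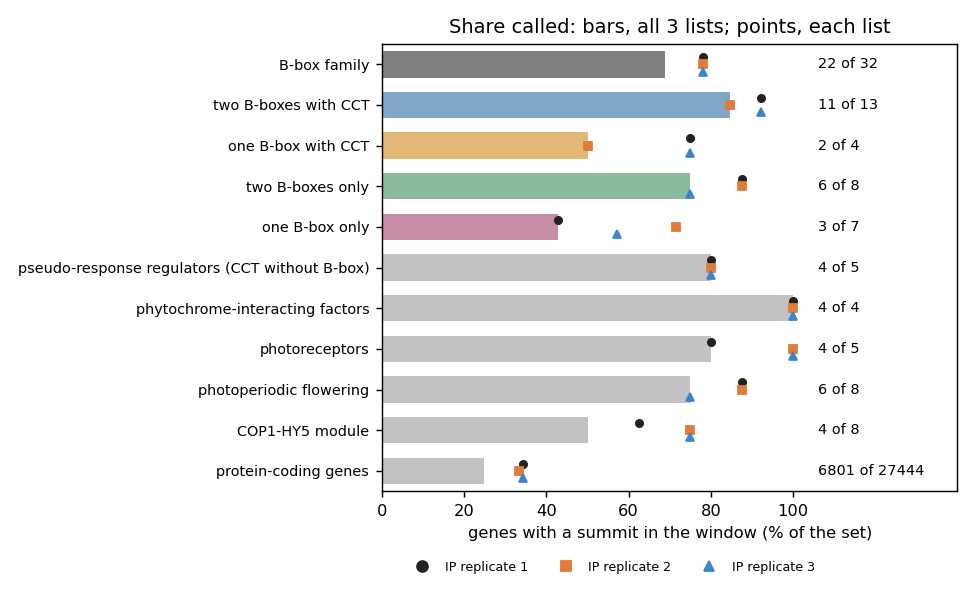
Percentage of genes of each set with a summit in the gene plus 500 bp, with the B-box family and its 4 structural groups on top, 5 sets of light and flowering genes next and all protein-coding genes at the bottom. Bars give genes called in all 3 lists (counts at the right) and points each single list; the family stands at 22 of 32 and all protein-coding genes at 6801 of 27444.

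Of the CO-type members, the subgroup of CO and COL1 to COL5, 6 of 6 were called in all 3 lists, but over a wide range of strength. COL3 (AT2G24790), whose protein interacts with COP1 and promotes the light-grown form of development, had 35.4, 18.7 and 37.0 in the lists of replicates 1, 2 and 3, a mean of 30.3 ± 10.1 (SD, n = 3). These values lay at percentiles 96.4, 89.5 and 97.5 of their lists, and replicate 2 was the low one. The COL3 summits lay within 40 bp of each other, at position 10566731 of chromosome 2 (TAIR10), 105 bp outside the gene.

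COL4 (AT5G24930), a repressor of flowering, had 30.8, 20.9 and 24.7, a mean of 25.5 ± 5.01 (SD, n = 3), at percentiles 95.1, 91.6 and 93.7 of their lists. The strongest COL4 summits stood outside the higher-coordinate end of the gene, 45 bp away in replicate 1, 371 bp in replicate 2 and 10 bp in replicate 3, so they were not linked into a shared region. These summits also lay in the window of the neighbour AT5G24940, 194 bp from COL4, and were its strongest. The replicate 2 summit lay past the near edge of AT5G24940 and so nearer to that gene than to COL4. The place of COL4 in the top 10% of the replicate 2 list rested on this summit. The other COL4 summit in replicate 2 had 10.6, at percentile 73.4. With each summit given to its nearest gene, or to every gene it lay inside, the COL4 mean was 22.0. The site shared by the 3 lists was at the opposite end, at position 8589418 of chromosome 5 and 39 bp outside the gene, with a lower mean strength of 16.9 ± 5.44 (SD, n = 3).

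CO (AT5G15840), the activator of FT, was among the weakest called members, with 5.84, 5.25 and 4.99, percentiles 39.5, 38.0 and 34.5. Its single region lay inside the gene, 128 bp from the higher-coordinate edge, at position 5172957 of chromosome 5. COL2 (AT3G02380), a close relative of CO, was the weakest of the 22, with 6.03, 4.76 and 5.06, and the 3 values overlapped those of CO. COL1 (AT5G15850), the neighbour of CO on the chromosome and also a close relative, had 10.8, 12.5 and 13.1, a mean of 12.1 ± 1.18 (SD, n = 3), above CO and COL2 in every list. COL5 (AT5G57660), which can induce flowering when overproduced, had 7.69, 10.01 and 11.96, between COL2 and COL1 in each list. With each summit given to its nearest gene this order turned, since the COL1 mean was then 6.68 and that of COL5 still 9.89. No other subgroup was called completely.

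In the remaining subgroup with 2 B-boxes and CCT, COL9 to COL15, 5 of 7 members were called. COL10 (AT5G48250) led with 16.4, 22.2 and 15.9, a mean of 18.2 ± 3.50 (SD, n = 3), at position 19563880 of chromosome 5, 48 bp outside the gene. COL15 (AT1G28050) had 17.0, 12.9 and 8.63, and COL9 (AT3G07650), known to delay flowering, had 9.07, 13.4 and 12.9. The COL9 and COL15 values overlapped. COL11 (AT4G15250) and COL14 (AT2G33500) were weak, with means of 6.82 ± 1.87 and 5.60 ± 0.727 (SD, n = 3 each). COL13 (AT2G47890) had summits of 2.41 and 5.002 in replicates 1 and 3 at distant places and none in replicate 2. COL12 (AT3G21880), which inhibits flowering, had none, although its relative COL11 was called.

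Among the members with a single B-box and CCT, summits differed between lists in place or presence at COL16 and COL6. COL16 (AT1G25440) had 12.8, 20.1 and 29.7, a mean of 20.9 ± 8.50 (SD, n = 3), but the summit of replicate 1 lay inside the gene while those of replicates 2 and 3 lay outside the lower-coordinate edge, so no region was shared by the 3 lists. COL6 (AT1G68520) had strong summits in replicates 1 and 3, 28.0 and 19.9, both inside the gene, and none in replicate 2 within 1000 bp of the gene. COL8 (AT1G49130) was the member of this group with a shared region, 81 bp outside the gene, with 8.62, 8.78 and 12.5. COL7 (AT1G73870) had no summit in its window. A single summit of 7.49 in replicate 3 stood 592 bp from it.

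Among the members with 2 B-boxes only, the leading genes were BBX19 and BBX25. BBX19 (AT4G38960), which delays flowering and favours hypocotyl growth, had 21.6, 28.7 and 24.2, a mean of 24.8 ± 3.58 (SD, n = 3), at or above percentile 90.2 of their lists. BBX25 (AT2G31380, also STH), a negative regulator of light-grown development, had 14.98, 21.7 and 21.2, a mean of 19.3 ± 3.74 (SD, n = 3), at position 13381758 of chromosome 2 and 9 bp outside the gene. BBX24 (AT1G06040, also STO), its close relative with a similar role, was lower in each list, with 14.6, 11.5 and 8.62. The BBX24 and BBX25 ranges did not overlap, although 14.6 in replicate 1 for BBX24 came close to 14.98 for BBX25.

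The genes of the HY5 partners that promote light-grown development had lower mean strengths than BBX19 and BBX25 or were not called in all 3 lists. This order rested on sites shared with neighbours. With each summit given to its nearest gene, or to every gene it lay inside, BBX19 and BBX25 were not called. The means of BBX22, BBX21, BBX24 and BBX18 stayed as they were. Members that restrain light-grown development did not all stand higher, since the means of BBX24 (11.6) and BBX18 (9.99) were below that of BBX22 (11.8). BBX22 (AT1G78600, also LZF1) had 12.1, 12.6 and 10.6, a mean of 11.8 ± 1.05 (SD, n = 3), at a region 5 bp inside the gene. BBX21 (AT1G75540), which raises HY5 activity, had 5.76, 3.40 and 7.40, below the median strength of its list in replicates 1 and 2. BBX20 (AT4G39070, also BZS1), a gene of light and brassinosteroid responses, had 2.90 and 4.44 in replicates 1 and 2 and no summit in replicate 3. BBX23 (AT4G10240) had none. BBX18 (AT2G21320), which restrains light-grown development, had 20.0, 6.48 and 3.45, the largest SD relative to the mean among the called members, at 9.99 ± 8.83 (SD, n = 3). Its high value came from replicate 1.

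Among the members with a single B-box only, 3 were called in all 3 lists and 4 were not. BBX29 (AT5G54470) was the strongest of all members, with 42.3, 28.0 and 36.8, a mean of 35.7 ± 7.20 (SD, n = 3), at or above percentile 95.8 in each list. Its relative BBX28 (AT4G27310), which hinders HY5 from binding DNA, had 45.1, 17.2 and 21.5, a mean of 27.9 ± 15.03 (SD, n = 3). BBX32 (AT3G21150), a repressor of light responses that acts with BBX21, had 23.3, 11.9 and 20.7, a mean of 18.7 ± 5.99 (SD, n = 3), at a region 315 bp inside the gene. The ranges of BBX28 and BBX32 overlapped, while BBX32 lay below BBX29 in every list.

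BBX30 and BBX31 encode microProteins, small proteins that tie CO to the corepressor TOPLESS. BBX30 (AT4G15248) had no summit. BBX31 (AT3G21890) had one of 4.47 in replicate 2 only. BBX26 (AT1G60250) had none, and BBX27 (AT1G68190) had 6.86 and 3.61 in replicates 2 and 3. TOPLESS itself (TPL) had 56.2, 51.8 and 42.3, a mean of 50.1 ± 7.12 (SD, n = 3), above every member's mean.

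The flank width of 500 bp decided several of these values. BBX28 shows it: the value of 45.1 in replicate 1 came from a summit 494 bp outside the gene, just inside the window, while replicates 2 and 3 had summits of 37.8 and 37.8 at 509 and 503 bp, just outside. Together these summits form a region with a mean of 40.2 ± 4.22 (SD, n = 3), at position 13675034 of chromosome 4, higher than any region inside a window of the family. The region of all 3 lists within the BBX28 window lay at the other end, 115 bp outside the gene, with 32.9, 17.2 and 21.5, a mean of 23.9 ± 8.12 (SD, n = 3). The strongest BBX29 summits lay 460, 466 and 445 bp from the gene in replicates 1, 2 and 3, just inside the window. With flanks of 250 bp BBX29 was still called, through a region 206 bp from the gene at its opposite end, with a mean of 13.2 ± 4.50 (SD, n = 3). At COL5 a region with 22.1, 21.5 and 26.9 stood at position 23357627 of chromosome 5, 638 bp from the gene, stronger in every list than the summits of 7.69, 10.01 and 11.96 inside the window.

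**Figure D3:**
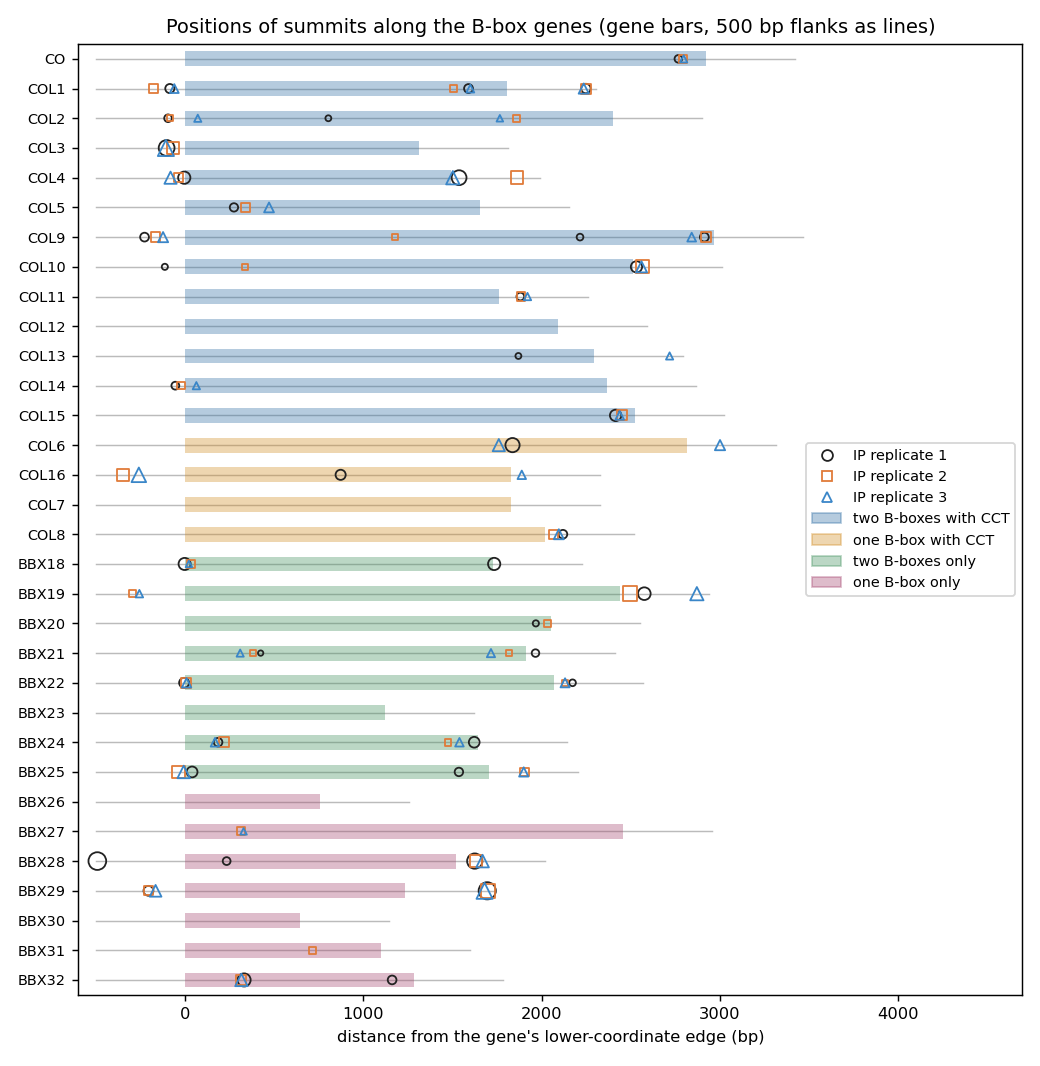
Positions of all summits within the windows of the 32 B-box genes, as distance in bp from each gene's lower-coordinate edge (bars, gene bodies; lines, 500 bp flanks). Symbols give the 3 IP lists and symbol area grows with strength; summits sit at one or both ends of most genes, and COL12, COL7, BBX23, BBX26 and BBX30 have none.

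Sites called in all 3 lists sat close to the ends of the B-box genes. Summits of different lists within 250 bp of each other were linked, and a linked group with a summit of each list was called a region. The windows of the family held 27 of the 6684 regions of the genome, at 20 of the 32 members, whereas 22.9% of protein-coding genes had one. COL16 and BBX19 were called in all 3 lists without a region. Summits of a region spread over a median of 51 bp, from 12 bp at COL1 to 250 bp at BBX21. The median distance to the nearest gene edge was 104 bp for the 27 regions and 184 bp for the 7261 pairs of a region and a protein-coding gene window. Within 250 bp of an edge lay 81.5% of the family's regions, against 62.9% of those pairs. Of the 27 regions, 12 lay inside the gene, 44.4%, against 45.4% of the pairs. No region lay more than 500 bp from an edge inside a member, against 11.1% of the pairs. The pairs took in genes of every length, and the part of gene length in these distances was not tested. Strand was not used here, so the ends could not be told apart as start and end of transcription.

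By structural group, 6 of 8 regions lay inside the gene at members with 2 B-boxes only. The count was 5 of 14 at members with 2 B-boxes and CCT, 1 of 4 at members with a single B-box only and 0 of 1 at COL8. The median distances to the nearest edge were 81.5 bp, 96 bp and 260.5 bp in the first 3 of these groups. The longer distance in the last of them came from BBX29 and BBX32. A region was placed by its median summit, and some regions straddled a gene edge. At BBX18, BBX22 and the higher-coordinate region of BBX21, counted as inside, the replicate 1 summit lay 4, 7 and 52 bp outside the gene. The reverse held at BBX25, COL2 and COL14, counted as outside. There a summit lay inside the gene, in replicate 1 at BBX25 and in replicate 3 at COL2 and COL14.

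Several members carried a region at both ends. This was the case for COL1, COL9, BBX21, BBX22, BBX24 and BBX29, 6 of the 32, and these were also the members with at least 2 regions, whereas 3.29% of protein-coding genes had that many. Of the genes called in all 3 lists, 6 of 22 members and 13.3% of protein-coding genes had at least 2. At COL9 the ends were alike in strength, with means of 10.7 ± 2.06 outside the lower-coordinate end and 10.4 ± 2.53 inside the other (SD, n = 3 each). BBX24 likewise had 9.46 ± 1.73 and 9.05 ± 5.23. BBX22 was uneven, with 11.8 ± 1.05 at one end and 5.11 ± 4.12 at the other, where the values were 3.90, 1.72 and 9.70. The weaker BBX22 region lay 65 bp outside BBX22 and inside the neighbour MSL6. BBX21 had 3.13 ± 1.76 and 5.52 ± 2.02, with ranges that overlapped.

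**Figure D4:**
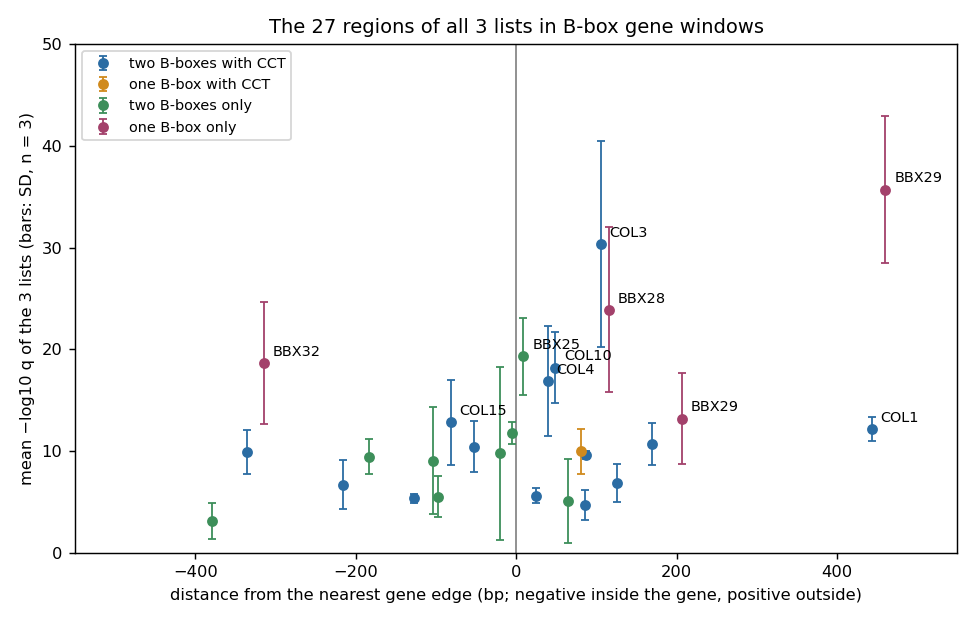
The 27 regions called in all 3 lists within B-box gene windows, by distance from the nearest gene edge in bp (negative inside the gene, positive outside) and mean −log10 q (bars, SD, n = 3). Colours give the structural group; 22 of the 27 lie within 250 bp of an edge, and the strongest, at BBX29, lies 460 bp outside.

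Neighbouring genes shared some of these sites. How often regions elsewhere in the genome are shared between gene windows was not computed. Of the 27 regions, 12 also lay in the window of another protein-coding gene, and 15 lay in the window of the member alone among protein-coding genes. Those 15 included the regions of COL3, COL5, COL10, BBX28 and BBX29 and the weaker, lower-coordinate end of COL4. When each summit was given to its nearest gene, or to every gene it lay inside, 17 members were still called, against 16.7% of protein-coding genes. COL11, COL14, COL16, BBX19 and BBX25 were not called. A summit inside overlapping genes, as in COL1 and AT5G15845, counted for each of them. At BBX25 the region 9 bp outside the gene lay inside the neighbour AT2G31370, which is 6 bp away.

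CO and COL1 are adjacent, and a long non-coding RNA gene, AT5G15845, overlaps both in the annotation. The COL1 window held 3 regions, the highest number in the family, a count reached by 0.266% of protein-coding genes. The region 87 bp outside COL1, at position 5176004 of chromosome 5, had a mean of 9.61 ± 0.426 (SD, n = 3) and lay inside the non-coding gene. So did the region 216 bp inside COL1, with 6.68 ± 2.40. The strongest COL1 region, 12.1 ± 1.18 at position 5178340, lay 443 bp outside COL1 and inside both AT5G15853 and PCME. With gene bodies alone, or with each summit given to its nearest gene, the COL1 mean fell to 6.68, against 12.1 with the flanks. The CO region lay 124 bp from the non-coding gene and more than 500 bp from COL1.

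The paired microProtein genes lie beside CCT members: BBX30 is 285 bp from COL11, and BBX31 is 487 bp from COL12. The COL11 region, with 6.18, 8.92 and 5.35, stood at the end away from BBX30, inside the short non-coding gene AT4G06300. BBX31 and COL12 shared no summit, since the only one, 4.47 in replicate 2, lay inside BBX31.

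BBX18 and BBX19, a pair of close relatives, both neighbour a gene for fructose-bisphosphate aldolase, an enzyme of the Calvin cycle and of glycolysis: FBA1 is 135 bp from BBX18 and FBA2 is 155 bp from BBX19. At BBX18 the replicate 1 summit of 20.0 lay between the genes, 10 bp outside BBX18. The nearby summits of replicates 2 and 3, 25.8 and 20.4, lay inside FBA1, 968 and 952 bp from BBX18 and outside its window. At BBX19 the summits of replicates 1 and 2, 21.6 and 28.7, lay in the intergenic stretch, 139 and 57 bp outside BBX19, and that of replicate 3, 24.2, lay inside FBA2, 434 bp from BBX19. FBA1 and FBA2 were each called in all 3 lists. The end of BBX18 away from FBA1 had a region of its own, 20 bp inside the gene, with 19.4, 6.48 and 3.45.

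**Figure D5:**
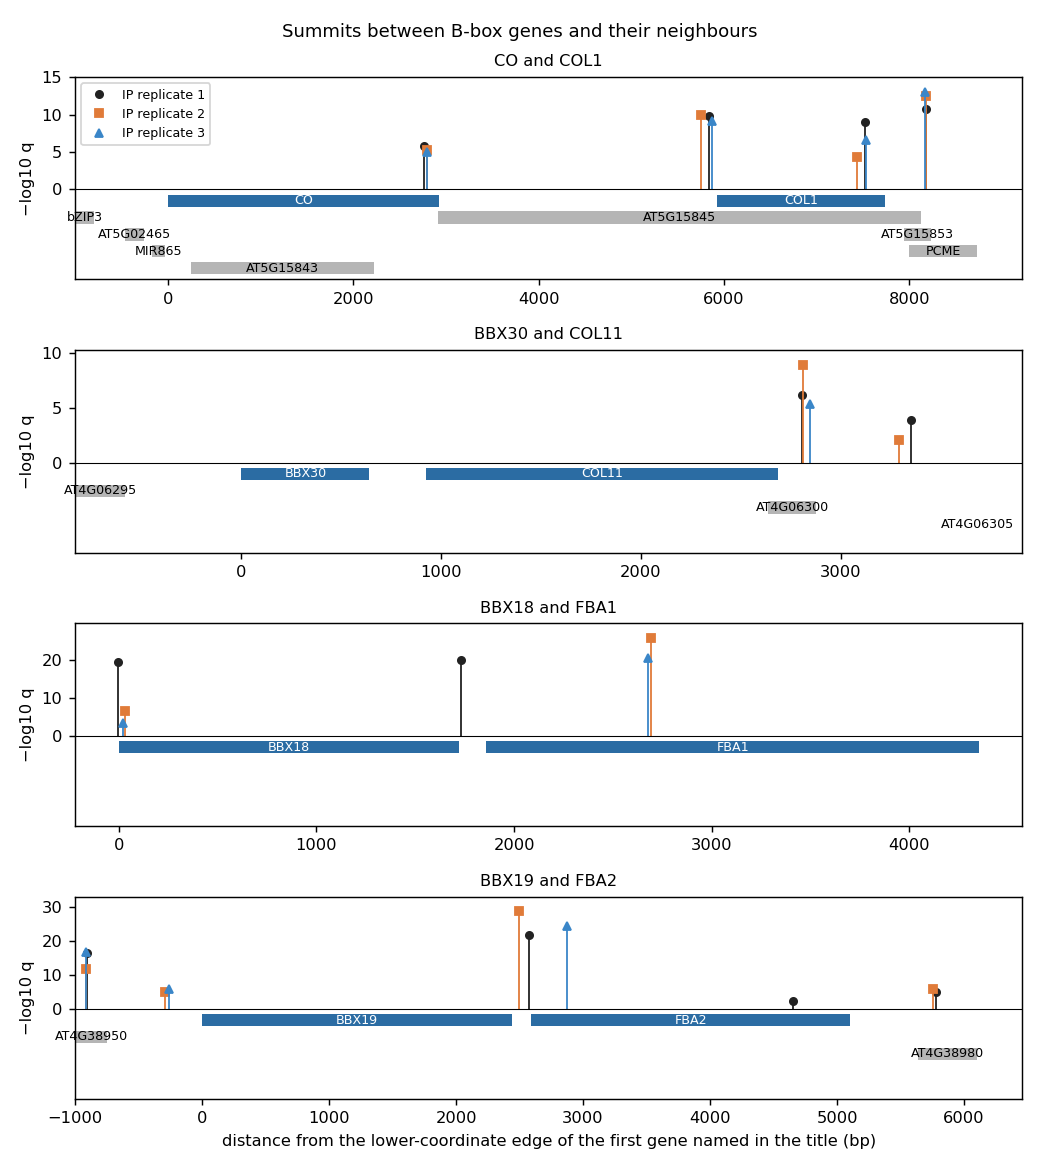
Summits (stems, −log10 q, by IP list) around CO and COL1, BBX30 and COL11, BBX18 and FBA1, and BBX19 and FBA2, by distance in bp from the lower-coordinate edge of the first gene. Blue bars are the genes named in each title and grey bars other annotated genes; the highest summits near BBX18 and BBX19 fall between the gene and the aldolase gene or inside the aldolase gene.

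Genes that work with the family in light signalling and flowering were called as follows. Of 30 such genes, 22 had a summit in all 3 lists, 73.3%, against 24.8% of all protein-coding genes. Single lists called 83.3% ± 3.33 (SD, n = 3) of them. Their median length was 3315 bp, longer than that of the members and than the 2078 bp of all protein-coding genes. The part of length in their count was not tested. Of the pseudo-response regulators, clock proteins that carry a CCT domain without a B-box, 4 of 5 were called, led by PRR9 with 58.3, 47.1 and 56.4, and PRR3 had no summit. All 4 phytochrome-interacting factor genes were called, with PIF5 highest at 43.0 ± 11.7 (SD, n = 3).

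HY5 had 22.7, 13.9 and 18.8, a mean of 18.5 ± 4.43 (SD, n = 3), and COP1, whose ligase targets HY5 and B-box proteins, had 17.5 ± 2.78. Among the COP1 and HY5 module 4 of 8 genes were called, and DET1 had no summit. Of the genes around CO in photoperiodic flowering, 6 of 8 were called, the repressors CDF1, CDF2, CDF3 and CDF5 among them with means between 6.50 and 12.7. FT, the target of CO, had none. FKF1, the photoreceptor that removes CDF proteins, had summits in replicates 1 and 2 only. Photoreceptor genes counted 4 of 5, with CRY2 at 23.7 ± 1.59 and PHYB at 23.8 ± 1.17 (SD, n = 3 each), and their ranges overlapped. These levels were not tested against those of the B-box genes.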

How the data were processed

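The submitters' processing notes name fastp, Bowtie2 2.3.3, MACS2 2.2.5, deepTools and the TAIR10 build. Peak thresholds, use of the inputs and read filters are not stated there. The deposited strength was read as −log10 q from the values, whose minimum of 1.30 equals −log10 of 0.05. Peak names differ by replicate, so peaks were taken as called per sample, and the depth per sample is unknown.

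Summit positions are 1-based TAIR10 coordinates. Genes came from an NCBI RefSeq table of assembly TAIR10.1, which 32 of 32 members matched and whose coordinates are not printed. Shifting regions by 500 to 5000 bp lowered their share near gene edges on 5 of 5 chromosomes. Strand, exons, domains and sequences were not used here, so the planned motif and start or end comparisons were not run.

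A gene's value is its strongest summit per list, with mean and SD over 3 lists. With 1 genotype and no contrast, no test was made. Every member is accounted for, and other genes are named where they share a site or are in the partner list. Members, lists and settings were chosen with earlier results of these data known, and related gene pairs after their values were seen. Python 3.11.15, numpy 2.4.6 and pandas 2.3.3 were used, and window and linking steps were tested on simulated summits.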

Additional observations from a re-analysis of the deposited data

How the results depend on the processing

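The count of 22 members called in all 3 lists stayed between 16 and 26 under every alternative run other than gene bodies alone, which left 9, against 11.1% of all protein-coding genes. The 26 came from asking for a summit in at least 2 of the 3 lists, which called 33.5% of protein-coding genes. With gene bodies alone the counts were 6 for 2 B-boxes with CCT, 0 for a single B-box with CCT, 2 for 2 B-boxes only and 1 for a single B-box only. With summits below the median strength of their list left out, 16 members and 11.7% of protein-coding genes were called. CO, COL2, COL11, COL14, BBX18 and BBX21 were not, and the group with 2 B-boxes and CCT kept 7. The count for a single B-box with CCT was 1 with 250 bp flanks, with each summit given to its nearest gene and with a shared region required. Leaving out a replicate gave 23 to 24 called members, against 27.5% to 28.1% of protein-coding genes. The added members were BBX27 without replicate 1, COL13 and COL6 without replicate 2 and BBX20 without replicate 3. Flanks of 1000 bp called the same 22 members, while the share of protein-coding genes rose from 24.8% to 29.3%. Ordering the called members by percentile in place of −log10 q moved no gene by more than 2 places, and BBX29 and COL3 stayed first and second. Gene bodies alone, and likewise each summit given to its nearest gene, lowered the means of COL1 to 6.68 and of COL2 to 4.06. Without its summit at the window's edge, an alternative chosen after seeing the data, BBX28 stood at 23.9. Depth, which limits what a list can call, is unknown.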

Other observations

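Regions far from the gene body were among the strongest near the family, as values chosen after they were seen. The region 503 bp from BBX28 (mean 40.2 ± 4.22, SD, n = 3), that 460 bp from BBX29 (35.7 ± 7.20) and that 638 bp from COL5 (23.5 ± 2.96) lay in no other gene's window of 500 bp. A region 911 bp from BBX19, with 14.99 ± 2.73, lay inside the neighbour AT4G38950.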
